A study of Homo sapiens with 6 samples.

Results

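The genes described here encode cell-surface adhesion and axon guidance proteins: the cadherins, the protocadherins, the neurexins, the ephrins with their Eph receptors, the Slits with their Robo receptors, and the semaphorins with the plexins and neuropilins that bind them. They were chosen by name from a table of gene counts. The name patterns matched 180 entries. Antisense and other hyphenated names, pseudogenes whose names end in P and a number, and EPHA2 were not taken. This left 157 candidates, among which pseudogenes with other names may remain. Of these, 82 averaged 10 counts or more in the 6 libraries and are called members below. Of the other 75 candidates, 15 had no counts at all. NRP1 and NRP2 were kept although their names end like those of pseudogenes, because the rule lists them. Just below the limit lay PCDH8 with a mean of 9.83 counts and PCDHGA1 with 9.67, and just above it CDH10 with 10.0 and PCDHGB7 with 10.2.

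RNA was taken from HEK-293T, an established line derived from human embryonic kidney, with the genotype labelled WT. The cells were exposed for 12 h to 10 µM nitidine chloride, a plant benzophenanthridine alkaloid, or to DMSO, with 3 libraries per group. A single line was used, and the labels do not say whether the libraries came from separate cultures, so the p-values measure the spread between these libraries. The nitidine chloride libraries held 13273432 to 15620937 counts and the DMSO libraries 12688093 to 16357992. Genes with at least 10 counts on average were compared with edgeR's quasi-likelihood test, and p-values were adjusted over all 15953 of them with a threshold of 0.05. Levels are CPM, counts relative to library size after TMM scaling, and fold changes are nitidine chloride over DMSO on the log2 scale with a standard error (SE).

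Classical cadherins join neighbouring cells by binding cadherins of the same kind across the gap, in the presence of calcium, and are tied to actin through catenins. Protocadherins are a larger related family, part of which is encoded in gene clusters on chromosome 5. Slits, ephrins and semaphorins are signals, mostly repulsive, that steer axons and migrating cells through Robo, Eph and plexin receptors, and neurexins organise synapses from the presynaptic side. Many of these genes are expressed in the nervous system and have very large introns. HEK-293 lines are known to carry neuronal transcripts, and NEFM and NEFL, which encode neurofilament subunits, had 1640 to 1957 and 2736 to 3138 counts in the nitidine chloride libraries, against 2095 to 2553 and 1911 to 2401 in the DMSO libraries.

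Of the 82 members, 30 fell, 17 rose and 35 did not pass the threshold. The share that fell was 36.6% of the members and 27.0% of all tested genes, and the share that rose was 20.7% and 24.7%. In either direction, 51.7% of all tested genes changed. The members had a median of -0.08 on the log2 scale and all tested genes 0.01. Changes of at least 2-fold in a gene past the threshold were found downward for 23 members and upward for 4, where 11.7% and 3.87% of all tested genes changed that much. The 4 include PCDHB2 and PCDHB15, which reached the count limit only through the nitidine chloride libraries. The 23 include CDH4, NRXN3 and EPHA6, which reached it only through the DMSO libraries. The libraries of both groups did not overlap for 54 members and for 60.7% of all tested genes. With scaling by library size alone, the median of all tested genes was 0.12, so directions are relative to the TMM scale. RNA levels in a bulk sample do not tell fewer expressing cells from less RNA per cell.

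The direction of a member followed the genomic span of its gene, the distance from its start to its end with introns included. Among the 20 members with a span of at least 200 kb there were 17 that fell and 0 that rose, and their median was -2.63. The 17 include CDH4, NRXN3 and EPHA6, which reached the count limit only through the DMSO libraries. All tested genes of that span outside the set, 1027 in number, fell in 89.4% of cases, with a median of -2.00. Of 36 members under 50 kb, 14 rose and 1 fell, with a median of 0.23, where 34.0% of 10597 other genes rose and 10.1% fell, with a median of 0.19. The 14 include PCDHB2 and PCDHB15, which reached the count limit only through the nitidine chloride libraries. Between those classes the medians of the members were -0.14 for 10 genes of 50 to 100 kb and -0.70 for 16 genes of 100 to 200 kb, against -0.21 and -0.84 for other genes. Above, they were -1.93 for 10 genes of 200 to 500 kb and -3.43 for 10 genes of 500 kb or more, against -1.92 and -3.15. The members have longer genes than the table as a whole, with a median span of 81.0 kb against 27.3 kb.

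Across the 82 members, Spearman's rank correlation of span and fold change was -0.79, against -0.47 over all tested genes. With the length of the longest annotated transcript it was -0.41 and with the mean count 0.06. These are descriptions over genes of the same 6 libraries, which are not independent replicates. The pattern was present in each library: relative to mean DMSO levels, the members of 200 kb or more had median log2 ratios of -2.17, -2.83 and -2.71 in the nitidine chloride libraries, against -0.15 to 0.10 for each DMSO library relative to the other DMSO libraries. Compared with tested genes outside the set whose span lay within a factor of 0.8, 48 of the 82 members were within 0.5 log2 units of the median of those genes, 45 lay above it and 37 below.

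**Figure D1:**
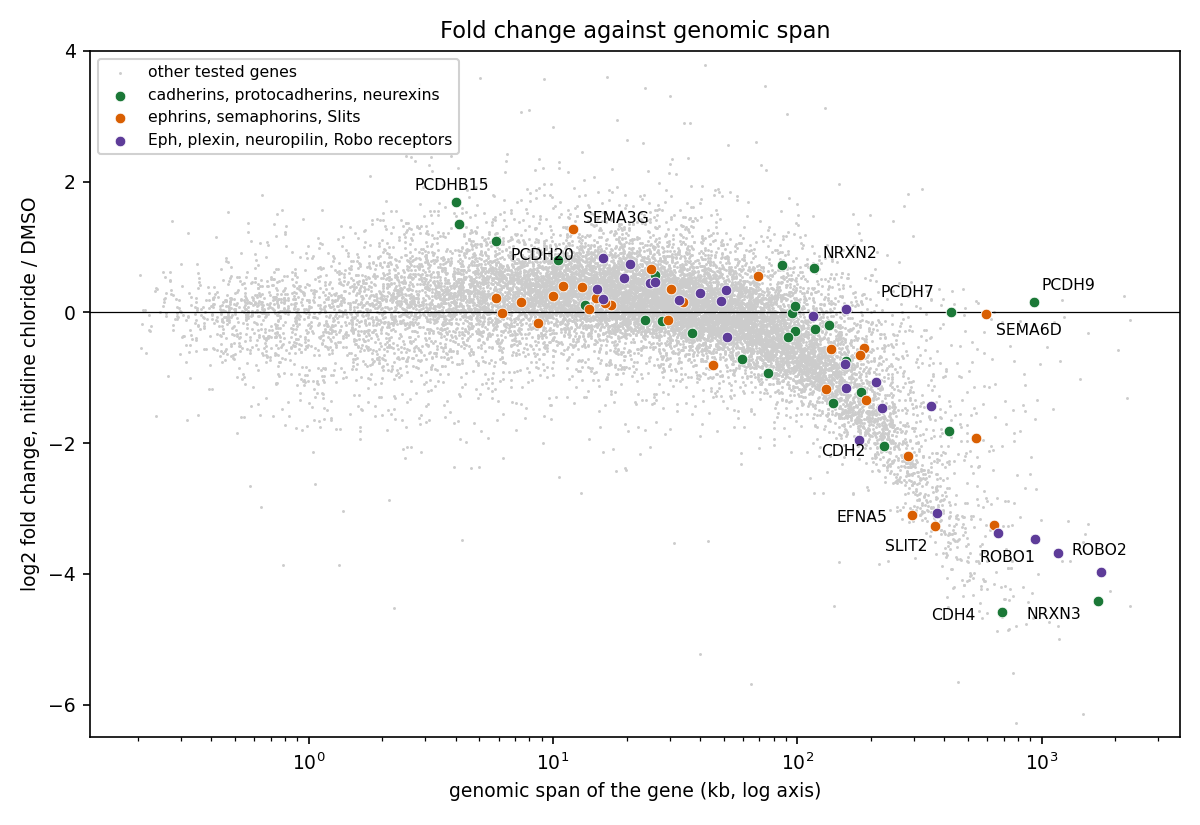
Each point is 1 tested gene, with its genomic span in kb on a log axis and its log2 fold change (nitidine chloride over DMSO) on the vertical axis; coloured points are the 82 members (green for adhesion genes, orange for guidance ligands, purple for their receptors) and grey points other tested genes, 13 of which lie outside the axis. The members of 200 kb or more lie below -1 with the exception of PCDH7, PCDH9 and SEMA6D, which lie near 0.

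Among the 12 cadherins, 6 fell, 2 rose and 4 did not pass. CDH4, R-cadherin (ENSG00000179242, chromosome 20 from 61252426 to 61940617, 688.2 kb), had 0.419, 0.758 and 0.216 CPM in the nitidine chloride libraries and 12.2, 12.6 and 9.84 CPM in the DMSO libraries. The log2 fold change of CDH4 was -4.58 ± 0.31, with an edgeR adjusted p of 1.40e-05, and the median of genes of like span was -3.26. This was the lowest fold change of the 82 members. CDH4 had only 6, 12 and 3 counts after nitidine chloride, so it reached the count limit only through the DMSO libraries and its fold change rests on few counts. CDH2, N-cadherin, the classical cadherin of neural and mesenchymal cells (ENSG00000170558, chromosome 18 from 27950966 to 28177446, 226.5 kb), fell to 12.2, 13.3 and 12.4 CPM in the nitidine chloride libraries, against 51.0, 55.0 and 50.6 CPM in the DMSO libraries. Its log2 fold change was -2.04 ± 0.08 (adjusted p = 1.50e-06), and CDH2 had the highest FPKM of the cadherins in DMSO, 7.86 against 2.05 after nitidine chloride. CDH23, the cadherin of the tip links of hair cells (419.0 kb), had 5.45, 6.44 and 3.81 CPM after nitidine chloride and 15.9, 20.4 and 19.2 CPM in DMSO, a log2 fold change of -1.82 ± 0.20. The groups of these 3 genes did not overlap.

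CDH7, CDH11 and CDH26 also fell, with -1.39, -1.22 and -0.92. CDH24, a type II cadherin with the shortest gene of the cadherin members (10.5 kb), rose to 44.0, 48.1 and 49.3 CPM in the nitidine chloride libraries. In the DMSO libraries CDH24 had 27.1, 26.8 and 27.7 CPM (log2 fold change 0.79 ± 0.08). CDH3, P-cadherin of epithelial cells (86.4 kb), rose to 4.68, 6.06 and 4.53 CPM, against 3.37, 3.20 and 2.73 CPM in DMSO (0.72 ± 0.18). Both rose in every nitidine chloride library above every DMSO library. Genes with the span of CDH3 had a median of -0.39, and 96.7% of them had a lower fold change than CDH3. CDH1, E-cadherin, which lies next to CDH3 on chromosome 16, was low, with a mean of 38.8 counts, and had -0.28 ± 0.16 (adjusted p = 0.203).

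Of 8 protocadherins outside the clusters, 1 fell, 2 rose and 5 did not pass. PCDH9 (ENSG00000184226, chromosome 13 from 66302834 to 67230445) spans 927.6 kb, and its level was 114.6, 99 and 118.0 CPM in the nitidine chloride libraries, against 95, 102.9 and 99.5 CPM in the DMSO libraries. Its groups overlapped, with a log2 fold change of 0.16 ± 0.08 (adjusted p = 0.142), where the 42 tested genes of similar span outside the set had a median of -2.80 and all of them were lower than PCDH9. PCDH9 passed as higher without nitidine chloride replicate 2 (0.23, edgeR adjusted p = 0.0176), and also when scaled by library size (0.26, adjusted p = 0.0375). PCDH7 (ENSG00000169851, chromosome 4 from 30720415 to 31146805, 426.4 kb) had 56.6, 59.9 and 57.8 CPM after nitidine chloride and 42.9, 63.9 and 65.9 CPM in DMSO, which overlapped (0.01 ± 0.15, adjusted p = 0.959). Genes of its span had a median of -2.81. PCDH10, a protocadherin of the developing brain (59.3 kb), fell to 39.6, 42.5 and 39.4 CPM in the nitidine chloride libraries, against 67.0, 64.4 and 68.7 CPM in the DMSO libraries (-0.72 ± 0.07).

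PCDH20, with a gene of 5.84 kb, rose to 9.44, 5.87 and 7.26 CPM after nitidine chloride, against 3.04, 3.84 and 3.68 CPM in DMSO (1.09 ± 0.21, adjusted p = 0.00316). PCDH1, an epithelial protocadherin of 26.1 kb, rose to 12.2, 16.4 and 15.1 CPM, against 9.53, 9.53 and 10.3 CPM in DMSO (0.57 ± 0.13). The groups of both genes did not overlap. PCDH17, PCDH18 and PCDH19 had log2 fold changes between -0.25 and 0.11 and did not pass.

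The annotated exons of the long genes that did not fall were laid out in a way that the name rule did not use, and this was looked at after their values had been seen. In GENCODE release 29, 91.2% of the exonic bases of PCDH9 and 58.1% of those of PCDH7 lie within the first 50 kb of the gene. For the 17 other members of 200 kb or more whose position matched the annotation, that share was between 0.589% for ROBO1 and 19.6% for PLXNA2. Among the tested genes of 200 kb or more outside the set, 23 had at least 50% of their exonic bases there, of which 12 fell and 3 rose (median -0.59). For 529 such genes with a share under 10%, 486 fell and 5 rose, with a median of -1.99. For 362 such genes with a share of 10 to 50%, 329 fell and 2 rose, with a median of -2.05. SEMA6D, the third long member that did not fall, had a share of 5.0%. Another feature was also looked at after the values had been seen, the share of annotated coding transcripts that span under 100 kb. For SEMA6D this was 12 of 15 (80%). That was the highest share of the 19 members of 200 kb or more with matching positions. Where that share was at least 75%, 35 of 55 genes outside the set fell and 5 rose; their median was -0.65, against -2.08 for 827 genes below 75%. Of members of 100 to 200 kb with such a share, SEMA6A (75%) fell with -1.18 and PLXNC1 (80%) was at 0.05. Gene-level counts do not show which transcript was read. Whether either feature bears on the fold changes was not tested.

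**Figure D2:**
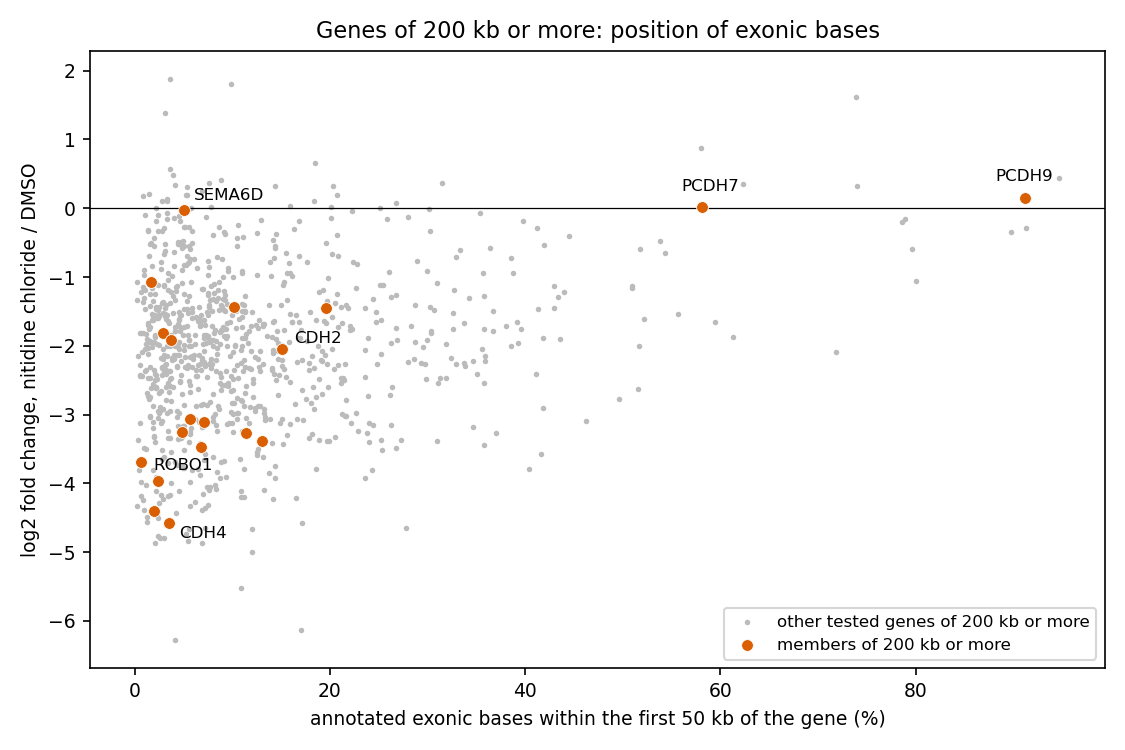
For tested genes of 200 kb or more, the share of annotated exonic bases within the first 50 kb of the gene (%) is set against the log2 fold change (nitidine chloride over DMSO); orange points are members and grey points other genes. PCDH7 and PCDH9 lie at 58.1% and 91.2% with fold changes near 0, and the other members lie at 19.6% or less.

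The clustered protocadherins lie in 3 gene rows on chromosome 5, in which each cell is known to choose among alternative first exons or genes. Of 59 candidates 6 reached 10 counts on average, so the members show only part of the clusters. The candidates of each row were therefore also summed with no filter. The name rule left out pseudogenes only where P and a number end the name, so these sums may include other pseudogenes. The 19 PCDHB candidates together had 7.61, 6.75 and 6.46 CPM in the nitidine chloride libraries, against 2.05, 3.34 and 1.71 CPM in the DMSO libraries, a ratio of means of 2.93 with no overlap. The 24 PCDHG candidates had 15.4, 14.2 and 15.6 CPM after nitidine chloride and 14.3, 16.1 and 16 CPM in DMSO, which overlapped. The 16 PCDHA candidates had 2 to 6 counts per library after nitidine chloride and 4 to 10 in DMSO. PCDHB genes have a single exon, while the PCDHA and PCDHG genes join a first exon of their own to exons they share.

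The PCDHB genes PCDHB15 and PCDHB2 reached the count limit only through the nitidine chloride libraries, with 24, 16 and 15 counts and 12, 26 and 22 counts there, against 7, 5 and 4 counts and 5, 12 and 5 counts in the DMSO libraries. The limit thus favoured a higher level after nitidine chloride. Both are among the 17 members counted above as higher, of which 15 are left without the clustered genes, and their values are given as a description. They also count above among the members under 50 kb that rose and those that rose at least 2-fold. PCDHB15 (4.02 kb) had 1.68, 1.01 and 1.08 CPM in the nitidine chloride libraries and 0.575, 0.356 and 0.254 CPM in the DMSO libraries (log2 fold change 1.68 ± 0.40). PCDHB2 (4.13 kb) had 0.839, 1.64 and 1.58 CPM, against 0.411, 0.853 and 0.317 CPM in DMSO (1.36 ± 0.44), and its groups overlapped. Near-copies could share reads: 5.48% of the windows of 100 bases in PCDHB15 transcripts and 11.3% of those in PCDHB2 transcripts are also found in another of 15 PCDHB genes. Their promoters are shown because they are the 2 PCDHB genes among the members. Given are the 100 bases before the RefSeq transcription start on GRCh38.p14, plus strand, with the longest run of bases that both hold within 250 bases before to 50 after the start in capitals.
PCDHB2 (chr5:141094515-141094614): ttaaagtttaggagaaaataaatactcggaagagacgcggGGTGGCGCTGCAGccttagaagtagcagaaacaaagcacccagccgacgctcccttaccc
PCDHB15 (chr5:141245295-141245394): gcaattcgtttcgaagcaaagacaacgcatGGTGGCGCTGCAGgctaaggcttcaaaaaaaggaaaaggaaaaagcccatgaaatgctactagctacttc
The run GGTGGCGCTGCAG begins 60 bases before the start of PCDHB2 and 70 bases before that of PCDHB15. It contains CGCT, the core of the conserved sequence element known from clustered protocadherin promoters. Searched on both strands, the run, which was defined by these promoters, is in 10 of 14 PCDHB promoters, both of them included, and in 15 of all 35116 promoters of the table, while CGCT alone is in 70.0% of all promoters. A match describes the sequence and was not measured as a binding site. RefSeq promoters were found for 67 of the 82 members.

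The 4 PCDHG members, PCDHGA11, PCDHGB7, PCDHGC3 and PCDHGC4, did not pass, with log2 fold changes between -0.38 and -0.01. PCDHGA11, which had the highest FPKM of the clustered members, had 4.40, 3.60 and 4.31 CPM in the nitidine chloride libraries and 4.68, 5.90 and 5.39 CPM in the DMSO libraries (-0.38 ± 0.16, adjusted p = 0.0774). Their annotated exons share 2181 bases, which make up 37.5% to 43.9% of the exonic bases of each, so reads from there cannot be given to 1 gene and the counts of these 4 are uncertain. The first coding exon that all 4 share, of 59 bases, shows this overlap (GENCODE 29, GRCh38, plus strand). It is printed in lower case throughout because every base is common to the 4 genes.
PCDHG shared exon (chr5:141494807-141494865): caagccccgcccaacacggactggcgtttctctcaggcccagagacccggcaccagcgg

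Both neurexins among the members changed, in opposite directions. NRXN3 (ENSG00000021645, chromosome 14 from 78170373 to 79868290, 1698 kb) had 0.909, 0.379 and 0.360 CPM in the nitidine chloride libraries and 11.6, 11.4 and 12.3 CPM in the DMSO libraries, a log2 fold change of -4.41 ± 0.27 (adjusted p = 9.45e-06). NRXN3 had only 13, 6 and 5 counts after nitidine chloride and reached the count limit only through the DMSO libraries. NRXN2 (117.0 kb) rose to 11.6, 12.9 and 9.71 CPM after nitidine chloride, against 7.23, 7.75 and 6.54 CPM in DMSO (0.67 ± 0.14, adjusted p = 0.00555). Neither gene had overlapping groups. NRXN2 was the longest member that rose, and among other tested genes of 100 kb or more 2.11% rose.

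**Figure D3:**
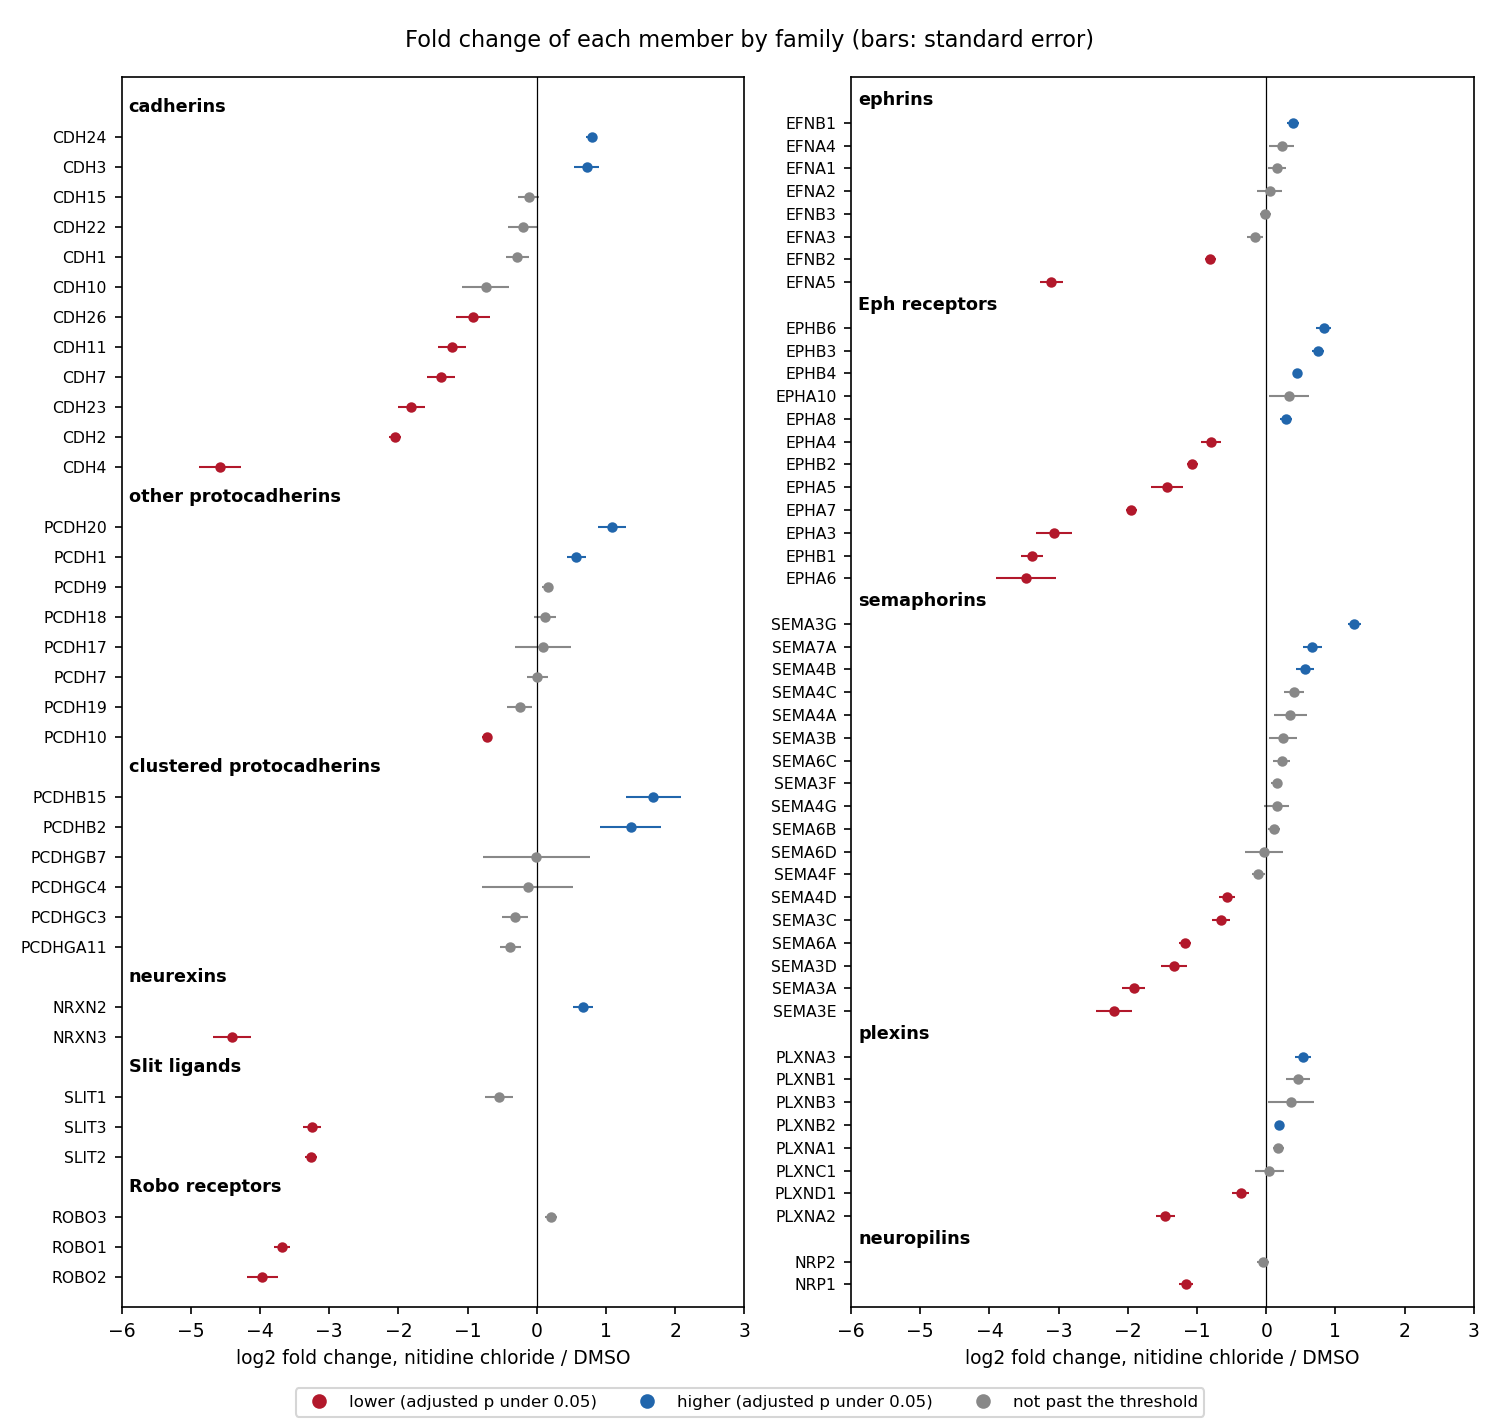
Each point is the log2 fold change (nitidine chloride over DMSO) of 1 member, with its standard error as a bar, grouped by family and coloured by whether it fell, rose or did not pass the adjusted p threshold of 0.05. Slits, Robo receptors, Eph receptors, ephrins, neurexins and cadherins reach below -3, while the clustered protocadherins stay above -0.5.

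In DMSO, ROBO1 and SLIT2 had the highest FPKM of the members of 200 kb or more, with 11.7 and 11.2. After nitidine chloride they had 0.979 and 1.25, below PCDH9 with 3.15 and PCDH7 with 2.85. SLIT2, the secreted ligand (ENSG00000145147, chromosome 4 from 20253260 to 20620561, 367.3 kb), had 17, 20.3 and 18.4 CPM in the nitidine chloride libraries and 173.5, 187.0 and 176.7 CPM in the DMSO libraries. ROBO1, its receptor (ENSG00000169855, chromosome 3 from 78597240 to 79767815, 1171 kb), had 19.7, 15.2 and 15.2 CPM, against 201.8, 221.8 and 221.5 CPM in DMSO. Ligand and receptor thus fell together, SLIT2 with a log2 fold change of -3.27 ± 0.08 (adjusted p = 4.28e-07) and ROBO1 with -3.69 ± 0.12 (adjusted p = 7.02e-07), with no overlap of groups. Genes of similar span had medians of -2.54 (325 genes) and -2.08 (18 genes).

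SLIT3 (639.4 kb) had 1.61, 1.45 and 1.44 CPM after nitidine chloride and 13.3, 15.1 and 14.5 CPM in DMSO (-3.25 ± 0.13). ROBO2, the neighbour of ROBO1 on chromosome 3 (1743 kb, the longest member), had 0.629, 0.569 and 1.01 CPM, against 10.0, 12.5 and 11.9 CPM in DMSO (-3.96 ± 0.22). Both fell with no overlap of groups. ROBO2 had only 9, 9 and 14 counts after nitidine chloride, so its fold change rests on few counts. SLIT1, at 187.9 kb the shortest Slit gene, had 3.28, 3.41 and 3.74 CPM, against 3.70, 5.90 and 5.58 CPM in DMSO, which overlapped (-0.55 ± 0.20, adjusted p = 0.0533). Without DMSO replicate 1, SLIT1 was at -0.72 with an edgeR adjusted p of 0.0117. ROBO3, a Robo receptor with a gene of only 16.1 kb, had 20.9, 20.8 and 22.2 CPM after nitidine chloride and 17.4, 18.6 and 19.4 CPM in DMSO (0.21 ± 0.09, adjusted p = 0.0848), and scaled by library size its adjusted p was 0.0203. With all libraries and TMM scaling, the 4 longest of these 6 genes fell and SLIT1 and ROBO3 did not pass.

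Among the 8 ephrins, the membrane-bound ligands of Eph receptors, 2 fell, 1 rose and 5 did not pass. EFNA5, a lipid-anchored ephrin (ENSG00000184349, chromosome 5 from 107376889 to 107670895, 294.0 kb), fell to 4.19, 3.22 and 3.38 CPM in the nitidine chloride libraries, against 30.7, 35.8 and 26.6 CPM in the DMSO libraries (-3.11 ± 0.16, adjusted p = 3.98e-06). Of 438 genes of like span, with a median of -2.00, 3.88% were lower. EFNB2, a transmembrane ephrin known from arterial vessels (45.4 kb), fell to 32.2, 34.9 and 36.1 CPM, against 59.8, 58.5 and 62.3 CPM in DMSO (-0.81 ± 0.08, adjusted p = 7.98e-05). EFNB2 was the 1 member under 50 kb that fell, while the median of like-span genes was 0.01 and 3.86% of them were lower. EFNB1, a related transmembrane ephrin of 13.2 kb with the highest FPKM of all members (20.4 after nitidine chloride and 14.5 in DMSO), rose to 63.5, 72.7 and 59.8 CPM, against 52.7, 48.6 and 48.9 CPM in DMSO (0.38 ± 0.09). EFNA1, EFNA2, EFNA3, EFNA4 and EFNB3, all under 15 kb, had log2 fold changes between -0.16 and 0.22.

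The 12 Eph receptors, receptor tyrosine kinases, divided by span: 7 fell, all of 156.2 kb or more, and 4 rose, all of 40.0 kb or less. EPHA7 (ENSG00000135333, chromosome 6 from 93240020 to 93419547, 179.5 kb) had 19.5, 17.2 and 18.3 CPM in the nitidine chloride libraries and 70.5, 73.5 and 69.0 CPM in the DMSO libraries. EPHB1 (662.7 kb) had 1.19, 1.39 and 1.15 CPM, against 11.4, 13.7 and 14.1 CPM in DMSO, and EPHA3 (374.6 kb) had 2.45, 1.39 and 1.01 CPM, against 12.6, 13.3 and 14.9 CPM. The log2 fold changes were -1.95 ± 0.08 for EPHA7, -3.38 ± 0.16 for EPHB1 and -3.07 ± 0.27 for EPHA3, with no overlap of groups. Of 855 genes with the span of EPHA7, whose median was -1.17, 6.32% were lower. EPHA6, EPHA5, EPHB2 and EPHA4 fell with -3.47, -1.43, -1.07 and -0.80. EPHA6 had only 9, 2 and 2 counts after nitidine chloride and reached the count limit only through the DMSO libraries.

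EPHB4, the EphB receptor known from veins, where it binds EFNB2, rose to 135.4, 138.2 and 137.7 CPM after nitidine chloride, against 107.0, 96.9 and 98.3 CPM in DMSO (0.45 ± 0.06, adjusted p = 6.32e-04). EPHB6, a receptor whose kinase domain is inactive, rose to 23.8, 28.6 and 27.3 CPM, against 14.5, 16.2 and 14 CPM (0.83 ± 0.11), and EPHB3 rose to 18.5, 18.6 and 18.8 CPM, against 10.7, 11.4 and 11.2 CPM (0.75 ± 0.09). Each of the 3 had every nitidine chloride library above every DMSO library. EPHA8 also passed, with 0.29 ± 0.09 (adjusted p = 0.0278), but its adjusted p reached 0.0987 among alternative fits. EPHB4 shares 69 exonic bases with SLC12A9, and EPHA5, which fell, shares 535 with EPHA5-AS1.

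**Figure D4:**
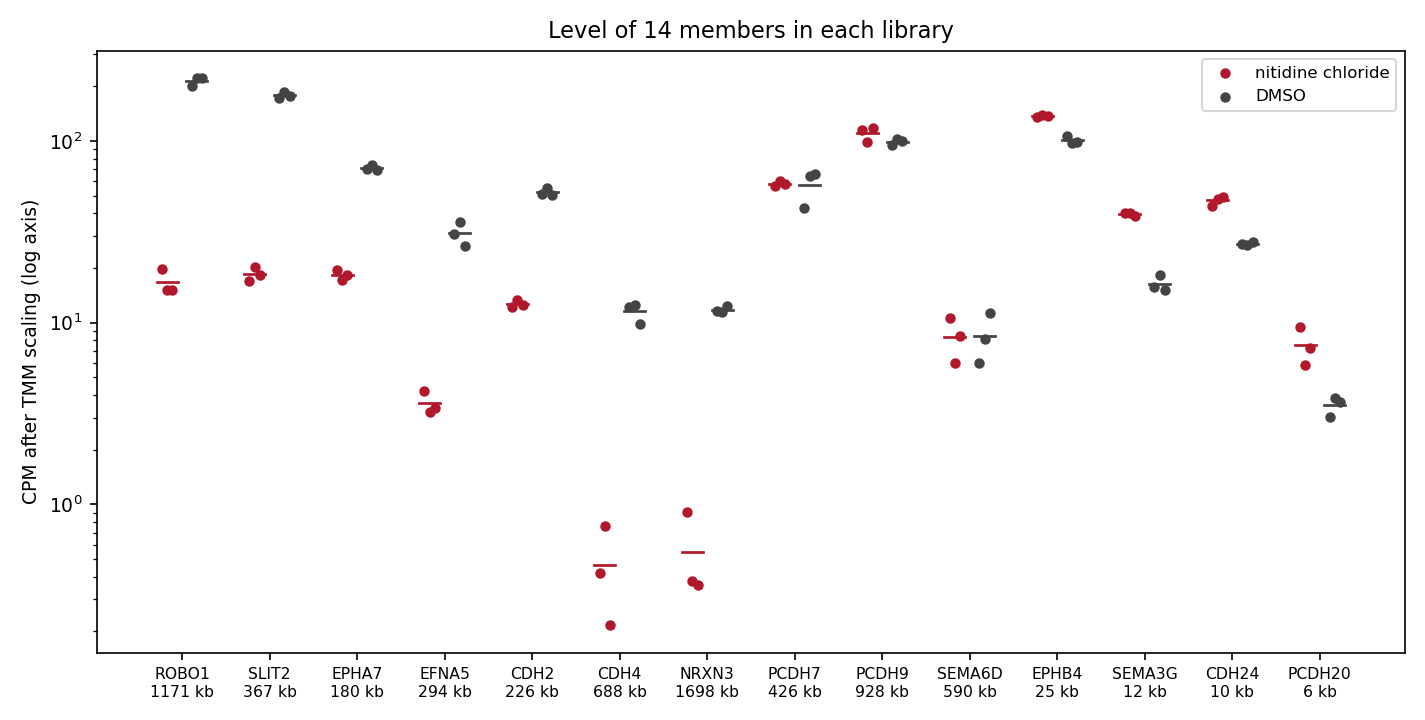
CPM after TMM scaling (log axis) of 14 members in each library, with the gene span under each name; red points are the 3 nitidine chloride libraries, dark points the 3 DMSO libraries and bars their means. The first 7 genes, of 180 to 1698 kb, lie lower after nitidine chloride, the groups of PCDH7, PCDH9 and SEMA6D overlap, and the 4 genes of 25 kb or less lie higher.

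Among 18 semaphorins, 6 fell, 3 rose and 9 did not pass. SEMA3A, the secreted semaphorin that collapses growth cones (536.9 kb), had 2.10, 2.21 and 2.09 CPM in the nitidine chloride libraries and 9.45, 7.68 and 7.17 CPM in the DMSO libraries (-1.92 ± 0.16). SEMA6A, a transmembrane semaphorin (131.3 kb), had 27.4, 26.2 and 27.7 CPM, against 55.9, 62.7 and 65.0 CPM in DMSO (-1.18 ± 0.08), and SEMA3D (191.3 kb) had 5.31, 3.41 and 4.60 CPM, against 9.78, 11.9 and 11.7 CPM (-1.33 ± 0.18). The groups of these 3 did not overlap. SEMA3E, SEMA3C and SEMA4D also fell, with -2.20, -0.65 and -0.56. SEMA6D (ENSG00000137872, chromosome 15 from 47184101 to 47774223, 590.1 kb) had 10.6, 6.0 and 8.48 CPM after nitidine chloride and 6.0, 8.18 and 11.3 CPM in DMSO, with overlapping groups (-0.03 ± 0.28, adjusted p = 0.933) and a median of -3.16 for genes of its span.

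SEMA3G, a secreted semaphorin of 12.0 kb (chromosome 3 from 52433053 to 52445085), rose to 40.2, 40.0 and 38.5 CPM in the nitidine chloride libraries, against 15.8, 18.2 and 15.2 CPM in the DMSO libraries. Its log2 fold change of 1.27 ± 0.10 (adjusted p = 2.53e-05) was the highest of the semaphorins, and 97.0% of genes of its span were lower. SEMA7A, a lipid-anchored semaphorin (25.2 kb), rose to 13.8, 15.2 and 11.7 CPM, against 8.63, 7.82 and 9.20 CPM in DMSO (0.67 ± 0.13), and SEMA4B (69.1 kb) rose to 12.1, 11.1 and 11.6 CPM, against 6.74, 7.82 and 8.95 CPM (0.56 ± 0.13). None of the 3 had overlapping groups. SEMA6B, a transmembrane semaphorin of 17.2 kb, had 32.8, 37.5 and 31.5 CPM, against 31.6, 30.4 and 32.1 CPM in DMSO, with overlap (0.11 ± 0.09, adjusted p = 0.331). The 7 others that did not pass ran from -0.12 to 0.41.

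Of 8 plexins, the large receptors of semaphorins, 2 fell, 2 rose and 4 did not pass. PLXNA2 (222.1 kb), the longest of these 8 genes, had 11.3, 14 and 15.5 CPM in the nitidine chloride libraries. In the DMSO libraries PLXNA2 had 33.9, 39.3 and 38.8 CPM (-1.46 ± 0.13, edgeR adjusted p = 6.69e-05), and the groups did not overlap. PLXNA1 (48.8 kb), the plexin with the highest FPKM, had 189.3, 227.7 and 218.9 CPM, against 180.0, 192.0 and 192.5 CPM in DMSO, which overlapped (0.17 ± 0.08, adjusted p = 0.112). PLXNA1 passed as higher without nitidine chloride replicate 1 (0.25, edgeR adjusted p = 0.0191), and also when scaled by library size (0.28, adjusted p = 0.0164). PLXNA3 (19.5 kb) rose to 47.5, 50.2 and 59.6 CPM, against 33.2, 35.5 and 40.2 CPM (0.53 ± 0.11). The longest annotated transcripts of these 3 genes, 11.4 kb for PLXNA2, 9.07 kb for PLXNA1 and 10.9 kb for PLXNA3, differ less than their spans.

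PLXNB2 (32.6 kb) rose to 135.9, 148.4 and 144.3 CPM after nitidine chloride, against 125.2, 127.0 and 123.2 CPM in DMSO (0.19 ± 0.06, adjusted p = 0.0278). PLXND1, the receptor of SEMA3E (51.6 kb), fell to 68.0, 64.2 and 58.5 CPM, against 68.5, 83.3 and 94.6 CPM (-0.37 ± 0.12, adjusted p = 0.0348). Both changes were small, and adjusted p-values reached 0.0959 for PLXNB2 and 0.116 for PLXND1 among alternative fits. PLXNC1 (159.0 kb) was at 0.05 ± 0.21, but it shares exonic bases with CEP83 and its counts are uncertain.

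The neuropilins, which bind the secreted semaphorins beside plexins, went apart. NRP1 (158.8 kb) fell to 7.97, 8.28 and 7.48 CPM in the nitidine chloride libraries, against 16.7, 18.1 and 18.2 CPM in the DMSO libraries (-1.16 ± 0.10, adjusted p = 5.64e-05). NRP2 (116.1 kb) had 34.0, 29.9 and 33.4 CPM, against 32.5, 34.6 and 33.6 CPM in DMSO, with overlap (-0.05 ± 0.08, adjusted p = 0.647). Over the guidance genes as a whole, 10 of 29 ligands (34.5%) fell and 4 (13.8%) rose. Of 25 receptors, 12 (48.0%) fell and 6 (24.0%) rose. Among all tested genes, 27.0% fell and 24.7% rose. Ligands and receptors had median log2 fold changes of -0.01 and -0.05, and median spans of 30.4 and 116.1 kb.

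Genes that act with the members but are not caught by their names were listed by function, and 100 of 119 listed entries were tested. Of these 59 fell, 15 rose and 26 did not pass, where 27.0% of all tested genes fell and 24.7% rose. Their median was -0.77 on the log2 scale and their median span 131.9 kb, against 27.3 kb for all tested genes. Of tested genes of 100 kb or more outside the member set, 80.5% fell. The partner genes named here were picked after their values were seen. Of 10 Eph effectors 9 fell: TIAM1, an activator of RAC1 (441.6 kb), fell to 11.3 ± 1.90 CPM after nitidine chloride, against 128.4 ± 3.84 CPM in DMSO (SD, n = 3), while NGEF, ephexin (134.6 kb), rose with 0.86. Of 28 Robo and plexin effectors 20 fell and 3 rose. TRIO, a guanine nucleotide exchange factor (388.4 kb), fell with -3.33, and RND1, a small GTPase that binds plexins (8.75 kb), rose with 1.37. In the netrin axis 6 of 9 fell and 2 rose, among them the receptor gene UNC5C (386.7 kb) with -3.17 and NTN1, netrin-1 (222.5 kb), with -1.93.

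Of 11 catenins and adhesion partners 5 fell and 2 rose. CTNNA1, alpha-catenin, which ties cadherins to actin (324.1 kb), fell with -1.55, and JUP, plakoglobin (32.3 kb), rose with 0.51, while CTNNB1, beta-catenin (65.3 kb), had 0.10 ± 0.07 (adjusted p = 0.240). Of 14 other genes of the cadherin superfamily 6 fell and 5 rose. FAT3 (544.4 kb) fell with -2.21 and CLSTN3, a calsyntenin (29.2 kb), rose with 0.86. Of 10 neurexin partners 5 fell and 1 rose, and CASK, a scaffold bound by neurexin tails (408.5 kb), fell with -3.72. Of 14 cytoskeletal effectors 7 fell and 0 rose, including RHOA (53.9 kb) with -0.45 and CDC42 (40.3 kb) with -0.50. Of 4 regulators of the protocadherin clusters, SMCHD1, a silencing factor of the clusters (149.3 kb), fell with -1.61, CTCF and RAD21 did not pass, and WIZ rose with 0.41.

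Of 20 marker genes of blood, endothelium, fibroblasts, hepatocytes and glia, 8 had a mean of at least 10 counts. The summed level of all 20 was 71.2 to 78.5 CPM in the nitidine chloride libraries and 44.1 to 49.1 CPM in the DMSO libraries. CD3E and TTR were at 0 in every library and PECAM1 and PTPRC had at most 2 counts. COL1A1, which had the most counts of the 20, had 707 to 902 counts after nitidine chloride and 365 to 532 in DMSO. The part of these levels in the results was not tested.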

How the data were processed

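Gene expression in 6 mRNA libraries of HEK-293T cells was analysed from a table that the authors deposited, with raw read counts per gene and FPKM per gene, per the file headers. The submitters' processing notes name HISAT2 2.0.4 and StringTie 1.3.0. The sources used here do not give the counter, its strand setting or the build, so reads of overlapping genes on opposite strands may not be separated. Positions of 79 of the 82 members equal those of GENCODE release 29 (GRCh38).

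Counts were scaled by TMM and tested with edgeR 4.0.16 in R 4.3.3 (quasi-likelihood, no covariate, mean count of at least 10, Benjamini-Hochberg adjustment). The SE is the log2 fold change divided by the root of the F statistic. Library ratios used log2(CPM + 0.1). Members and lists were chosen with earlier results of these data known. Per-library values are given for all members of families of up to 4, and in larger ones for the 3 lowest and 2 highest past the threshold with at least 50 counts and the highest FPKM, for up to 10 members that rose and for the 3 highest of 200 kb or more. PCDHB2, PCDHB15 and other members named outside this rule were chosen after their values were seen. As alternatives, each library was left out, and the others were a replicate block, other count filters, DESeq2 1.42.0, library size scaling, limma-voom (limma 3.58.1), an adjusted p of 0.01, a test against a 1.5-fold change and changed member sets. The labels do not say whether equal replicate numbers mark paired libraries, so the main fit did not pair them. Plots used matplotlib 3.10.9.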

Additional observations from a re-analysis of the deposited data

How the results depend on the processing

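The 30 and 17 members that fell and rose were 28 to 31 and 14 to 18 when single libraries were left out, and 29 and 16 with a replicate block. Correlations of the deviations of same-numbered libraries were 0.0014, -0.055 and 0.040, against -0.084 to 0.085 for libraries with different numbers. With 3 libraries per group these values cannot decide whether equal numbers mark a shared day or culture. Of the members past the threshold, 28 of 30 that fell and 14 of 17 that rose stayed so in every fit with the same threshold in which they were tested. The exceptions were CDH26, PLXND1, EPHA8, PCDHB2 and PLXNB2, whose adjusted p-values reached 0.0616, 0.116, 0.0987, 0.110 and 0.0959. Calls were lost without DMSO replicate 1 (PCDHB2, PLXNB2), DMSO replicate 2 (CDH26, EPHA8, PLXND1), DMSO replicate 3 (EPHA8, PCDHB2, PLXNB2, PLXND1), nitidine chloride replicate 1 (EPHA8), nitidine chloride replicate 2 (PCDHB2, PLXND1) and nitidine chloride replicate 3 (EPHA8, PCDHB2, PLXNB2, PLXND1). Calls gained among the 43 members with per-library values were SLIT1 without DMSO replicate 1, PLXNA1 without nitidine chloride replicate 1, PCDH9 without nitidine chloride replicate 2, and ROBO3, PCDH9 and PLXNA1 with library size scaling. Against a 1.5-fold change, 5 members and 3 partner genes were higher and 2833 genes of the table changed, against 8250. Scaled by library size alone, the median of all members was 0.022 and that of members under 50 kb 0.34, with 24 members higher and 29 lower. Under that scaling NRP2 had 0.056 and SEMA6D 0.076. With a mean count of at least 50, the rank correlation with span was -0.76. Without members overlapped by another counted gene, the median at 200 kb or more was -3.09. When single libraries were left out, the median of all members was between -0.16 and -0.037, that of members of 200 kb or more between -2.83 and -2.49, that of members under 50 kb between 0.22 and 0.33, and the rank correlation between -0.82 and -0.74. Of the 43 members with fold changes computed for each setting here, 3 that had not passed changed sign with single libraries left out: PCDH7 ranged from -0.16 (without DMSO replicate 1) to 0.12, SEMA6D from -0.24 to 0.23 (without DMSO replicate 3) and NRP2 from -0.087 to 0.0059. Without nitidine chloride replicate 2, PCDH7 was at -0.012, SEMA6D at 0.16 and NRP2 at 0.0059. The cause of these shifts was not tested. Members near 10 counts, such as CDH10 and PCDHGB7, are limited by depth.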

Other observations

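Among the clustered protocadherins below the count limit, the single-exon PCDHB14 had 22, 8 and 11 counts in the nitidine chloride libraries, against 2, 10 and 4 in the DMSO libraries. PCDHGA1 had 13, 23 and 12 counts, against 0, 9 and 1 in DMSO. PCDH8, a protocadherin outside the clusters, had 17, 15 and 10 counts after nitidine chloride and 11, 2 and 4 in DMSO. SEMA5B, a transmembrane semaphorin, had 4, 9 and 8 counts, against 11, 9 and 10. These are counts without a test. They were chosen as the genes nearest to the limit from below.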
